A study of Mus musculus with 8 samples.

Results

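Both small interfering RNAs (siRNAs) against Tet1 were set against a control siRNA 96 h after transfection, over all genes measured. The comparison used 6 of the 8 arrays of the series: 2 arrays with Tet1 siRNA 1 and 2 with Tet1 siRNA 2, each duplex given equal weight, against 2 control arrays. The groups were chosen by their labels, not by any measured value. All arrays were hybridised with total RNA of E14Tg2a, an established mouse embryonic stem (ES) cell line that lacks a working Hprt gene, and no other allele is named in the labels. The control duplex targets firefly luciferase, a gene that mouse cells lack, and the Tet1 duplexes are commercial ones listed in the design text. The remaining 2 arrays, of siRNA 1 at 48 h, were on neither side and entered only the shared estimate of the spread. Their levels are given where they help to read a gene. Whether the arrays of a group are separate cultures is not stated, and the p-values then reflect only the scatter of these arrays, which may be technical.

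Tet1 encodes a dioxygenase that turns 5-methylcytosine in DNA into 5-hydroxymethylcytosine and that is abundant in mouse ES cells. As a line derived from the inner cell mass, these cells grow as compact epithelial colonies held together by E-cadherin, and they can leave this state towards an epiblast-like one, which changes adhesion, cytoskeleton and metabolism as well as transcription factors. Small interfering RNAs lower the transcript they match and can also act on other transcripts, so responses shared by different duplexes are usually read together. No probe set is named for Tet1 in the annotation, and its level was not analysed here, so the knockdown could not be examined.

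Levels are given as RMA values (log2), in which 1 unit is a factor of 2, and differences are Tet1 siRNAs minus control on the same scale with their standard error (SE). Genes with an adjusted p under 0.05 were called (limma, Benjamini-Hochberg over 15267 genes), and the word kept is used of a gene that was also called in the same direction in each of 8 fits that left out 1 array. Values lay between 2.60 and 15.3, and probe sets for a bacterial trp transcript, taken as absent, averaged 3.40 to 3.58 per array. Arrays of 1 group correlated across probe sets with r from 0.997 to 0.998, siRNA 1 arrays with siRNA 2 arrays from 0.996 to 0.997, and siRNA arrays with control arrays from 0.988 to 0.992. Markers of ES cells were bright, with a summed signal of 14 genes between 16.50 and 16.59 on the siRNA arrays and of 16.62 on both control arrays (log2). This sum is weighted to the brightest markers, and their mean level ran from 11.93 to 12.09 on the siRNA arrays and was 12.20 on both control arrays. Of the 14 markers 2 were called higher and 5 lower (50%, where 24.2% of all genes were called), with 1 and 4 kept. By sign alone, 6 differed upwards and 8 downwards. Utf1 was the 1 kept higher, and Nanog, a homeodomain factor of pluripotency, was among the lower ones (-1.08 ± 0.083). Lung transcripts were present on all 6 arrays of 96 h, and their levels are given beside some of the falls they could touch, not all. In bulk RNA, fewer cells of a type and less RNA per cell cannot be told apart.

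Of 15267 genes, 3700 (24.2%) were called, 1836 higher (12%) and 1864 lower (12.2%) with the Tet1 siRNAs. Among them 504 (3.3%) were at least 1.5-fold higher and 371 (2.43%) at least 1.5-fold lower. The kept genes numbered 851 higher (5.57%) and 724 lower (4.74%), 10.3% of all genes in either direction. The siRNA arrays lay wholly above the controls in 3221 genes (21.1%) and wholly below them in 3539 (23.2%). These shares over all genes are the background for the list counts below. The controls weighed most in these counts: without control replicate 1 there were 2307 calls and without control replicate 2 there were 2218. As the plot of level against difference shows, most large differences belonged to genes of low or middle level, and the median over all genes was -0.02.

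**Figure D1:**
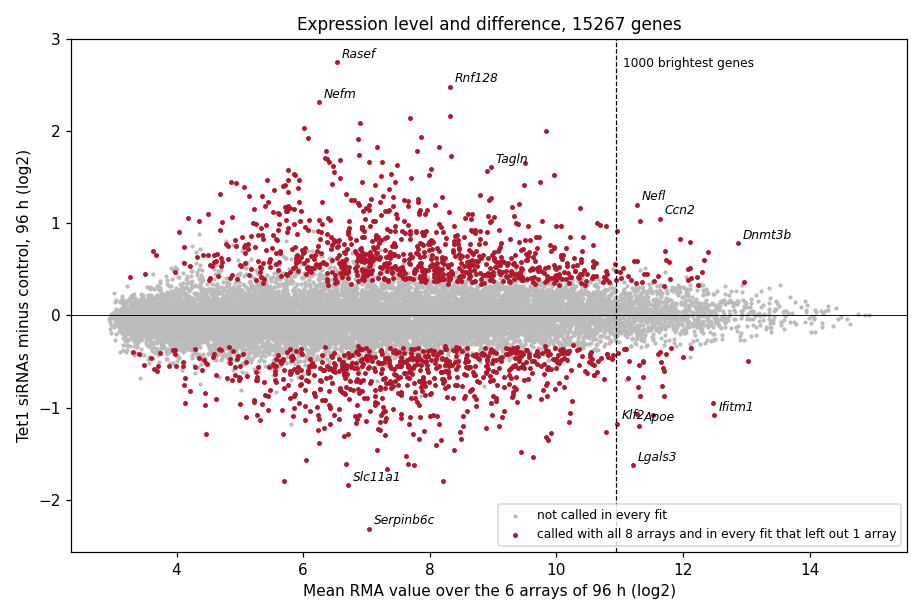
Difference between Tet1 siRNAs and control (log2, y axis) against the mean RMA value over the 6 arrays of 96 h (log2, x axis) for 15267 genes. Red points are the 1575 genes kept in every fit that left out 1 array, and the dashed line marks the lowest of the 1000 brightest genes, where Nefl and Ccn2 lie highest and Lgals3 lowest.

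The brightest genes were examined apart. Of the 1000 with the highest mean over the 6 arrays of 96 h, 208 (20.8%) were called, 130 higher (13%) and 78 lower (7.8%). Kept among them were 37 higher (3.7%) and 30 lower (3%), and 13 (1.3%) rose and 15 (1.5%) fell by at least 1.5-fold. Calls among these genes dropped to 84 and 77 without control replicate 1 or 2, to 134 without siRNA 1 replicate 2 and to 138 without siRNA 2 replicate 2, and the genes named next are kept ones.

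Neurofilament light chain, Nefl, a structural protein of axons, had the largest rise among the bright genes. Its level was 11.72 and 11.57 with siRNA 1 and 11.84 and 11.59 with siRNA 2, against 10.44 and 10.51 in the control arrays. All siRNA arrays exceeded the controls by more than 1 log2 unit, and the rise was 1.20 ± 0.11 (2.30-fold, adjusted p = 0.000171). Ccn2, a secreted matricellular protein also called connective tissue growth factor, had 12.16 on both siRNA 1 arrays and 11.85 and 11.77 with siRNA 2, against 10.98 and 10.88 in the control arrays. It rose by 1.05 ± 0.065 (2.07-fold, adjusted p = 3.9e-05), with siRNA 1 above siRNA 2. Dusp6, a phosphatase that switches off ERK, had 11.78 and 11.74 with siRNA 1 and 11.55 on both siRNA 2 arrays, against 10.58 and 10.68 in the control arrays.

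Enzymes of lipid and intermediary metabolism made up several of the next largest rises. Slc27a2, an acyl-CoA synthetase for very long fatty acids, rose by 0.92 ± 0.071, and Degs1, the desaturase that completes ceramide, by 0.70 ± 0.070. The mitochondrial glutamate dehydrogenase gene Glud1 rose by 0.60 ± 0.072. For the cytosolic carbonic anhydrase gene Car2 the level was 12.69 and 12.82 with siRNA 1 and 12.48 and 12.49 with siRNA 2, against 11.99 and 11.88 in the control arrays, a rise of 0.69 ± 0.071. None of the siRNA values of these enzymes overlapped the controls, which was a condition for naming a gene by rule.

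The other bright rises were of regulators and surface proteins. Fat1, a giant atypical cadherin, rose by 0.83 ± 0.11, although its control arrays were themselves apart at 11.59 and 11.22. The de novo DNA methyltransferase gene Dnmt3b stood at 13.23 and 13.22 with siRNA 1 and at 13.03 and 13.07 with siRNA 2, against 12.38 and 12.32 in the control arrays. Tfdp1, the DNA-binding partner of E2F factors, rose by 0.59 ± 0.085 and Khdrbs1, the RNA-binding protein Sam68, by 0.52 ± 0.065. Id1, Id2, Epcam and Utf1 completed the 15 largest, with differences between 0.58 and 0.80.

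**Figure D2:**
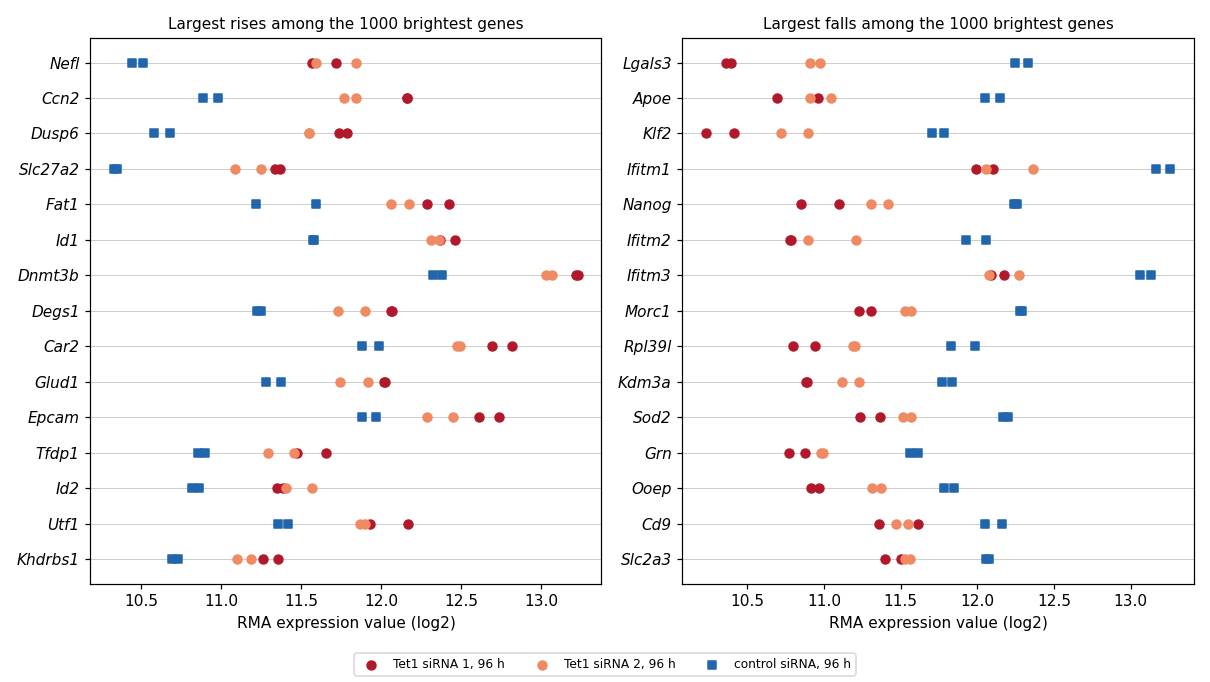
RMA value (log2, x axis) on each array of 96 h for the 15 largest rises (left) and the 15 largest falls (right) among kept genes of the 1000 brightest. Red and orange circles are Tet1 siRNA 1 and 2, and blue squares the control arrays. The siRNA arrays lie on 1 side of both controls in all 30 genes, which was a condition of their choice.

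Galectin-3, Lgals3, a sugar-binding protein of cells and secretions, fell most among the bright genes. Its level was 10.36 and 10.40 with siRNA 1 and 10.91 and 10.98 with siRNA 2, against 12.25 and 12.33 in the control arrays, a difference of -1.63 ± 0.068 (3.09-fold lower, adjusted p = 1.1e-05). The siRNA 2 arrays lay between siRNA 1 and control. Apoe, the lipid carrier apolipoprotein E, had 10.69 and 10.96 with siRNA 1 and 10.91 and 11.05 with siRNA 2, against 12.05 and 12.15 in the control arrays (-1.20 ± 0.091). Klf2, a zinc finger factor of the naive state, had 10.23 and 10.42 with siRNA 1 and 10.72 and 10.90 with siRNA 2, against 11.71 and 11.78 in the control arrays (-1.18 ± 0.082). In all of these the 4 siRNA arrays lay under the lower control, as the choice of genes required.

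Further bright falls covered chromatin, oocyte, mitochondrial and surface proteins. Morc1, an ATPase that silences transposons in germ cells, fell by 0.88 ± 0.061 and Kdm3a, a demethylase of histone H3 lysine 9, by 0.78 ± 0.078. The superoxide dismutase gene of mitochondria, Sod2, fell by 0.76 ± 0.067 and Rpl39l, a ribosomal protein paralogue used in germ cells, by 0.87 ± 0.075. Ooep, a component of the maternal complex of oocytes, fell by 0.67 ± 0.066, the tetraspanin gene Cd9 by 0.61 ± 0.090 and the glucose transporter gene Slc2a3 by 0.57 ± 0.063. Progranulin, Grn, a secreted and lysosomal protein, had 10.88 and 10.77 with siRNA 1 and 10.98 and 10.99 with siRNA 2, against 11.56 and 11.61 in the control arrays.

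Of the 15 largest falls 3 belonged to the interferon-induced transmembrane family, small membrane proteins that restrict virus entry and are abundant in early germ cells and ES cells. This grouping was made after the values were seen. Ifitm1 had 12.10 and 11.99 with siRNA 1 and 12.37 and 12.05 with siRNA 2, against 13.17 and 13.26 in the control arrays, a difference of -1.09 ± 0.094 (adjusted p = 0.000160). Ifitm2 had 10.78 on both siRNA 1 arrays and 11.21 and 10.90 with siRNA 2, against 11.92 and 12.05 in the control arrays, and Ifitm3 had 12.18 and 12.09 with siRNA 1 and 12.27 and 12.08 with siRNA 2, against 13.06 and 13.13 in the control arrays. These fell by 1.07 ± 0.097 and 0.95 ± 0.076, close to Ifitm1. No siRNA array of any of the 3 genes reached a control, as the choice of genes required. Of the other measured members, Ifitm5 fell by 0.38 ± 0.071 without being kept, and Ifitm6, a dim gene, differed by -0.39 ± 0.15 (adjusted p = 0.109).

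The starts of these 3 genes are shown because they lie near each other on chromosome 7 and moved together. RefSeq promoters (GRCm38.p6) were searched on both strands, from 250 bases before to 50 after the start, for the core of the interferon-stimulated response element, GAAANNGAAA, which 3.44% of 32851 promoters hold, and for the Stat core TTCNNNGAA, held by 8.3%. Both searches were chosen after the values were seen. Capitals mark the response element core in the 250 bases upstream of Ifitm1 (chr7:140967826-140968075, plus strand) and Ifitm2 (chr7:140955962-140956211, minus strand) and in the first 30 transcribed bases of Ifitm3 (chr7:141010715-141010744, minus strand):
Ifitm1: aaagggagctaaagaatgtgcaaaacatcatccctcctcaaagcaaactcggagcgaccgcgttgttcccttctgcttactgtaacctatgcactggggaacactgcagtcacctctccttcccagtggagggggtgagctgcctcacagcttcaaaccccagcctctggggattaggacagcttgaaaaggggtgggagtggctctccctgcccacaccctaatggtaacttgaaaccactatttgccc
Ifitm2: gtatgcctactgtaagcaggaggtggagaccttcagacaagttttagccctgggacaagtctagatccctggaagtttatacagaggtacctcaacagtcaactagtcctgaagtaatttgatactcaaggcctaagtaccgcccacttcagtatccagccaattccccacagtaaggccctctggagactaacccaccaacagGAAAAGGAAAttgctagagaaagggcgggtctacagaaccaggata
Ifitm3: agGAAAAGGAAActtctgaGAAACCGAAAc
Ifitm2 held the core once, with its first base at position -46, and Ifitm3 held it at positions 3 and 20 after the start, where the second match overlapped a Stat core at position 14, while the Ifitm1 window held neither. These are letters in a window and not measured sites.

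Lung and blood cell markers were set beside the falls of Lgals3, Apoe, Grn and the Ifitm genes, since macrophages or lung cells also express some of them. The summed signal of 19 lung markers (log2) was 13.27 and 13.08 with siRNA 1 and 13.61 and 12.91 with siRNA 2, against 13.47 and 13.50 in the control arrays, and 10.80 and 10.75 at 48 h. Of these markers 0 were called higher and 3 lower (15.8%, where 24.2% of all genes were called), which became 6 calls without siRNA 2 replicate 1 and 5 without siRNA 1 replicate 2. Napsa (-1.34 ± 0.11) and Hopx (-0.40 ± 0.066) were kept. Scgb1a1, the secretoglobin of club cells, had 12.48 and 12.27 with siRNA 1 and 12.83 and 11.95 with siRNA 2, against 12.66 and 12.64 in the control arrays (adjusted p = 0.409), and a mean of 3.87 at 48 h. The siRNA 2 replicate 1 array, singled out after its values were seen, had a higher summed lung signal than both controls. Its levels of Lgals3 (10.91), Apoe (10.91), Ifitm1 (12.37) and Grn (10.98) were below both controls. So was its summed signal of macrophage and other blood cell markers, at 10.74 against 10.83 and 10.92. This is 1 array, and the part of lung or blood cell RNA in its levels was not tested. On the 48 h arrays mean levels were 11.12 for Lgals3, 11.17 for Apoe, 12.17 for Ifitm1 and 10.87 for Grn.

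For 23 markers of macrophages and other blood cells the sum ran from 10.52 to 10.74 on the siRNA arrays and was 10.83 and 10.92 on the control arrays. Of these 0 were called higher and 2 lower (8.7%), or 1 without siRNA 1 replicate 1 or siRNA 2 replicate 2, with Laptm5 kept (-0.59 ± 0.066). Beside the 8.7% of these markers, 24.2% of all genes were called. The part of lung and blood cell markers in the falls was not tested. With the mean of the lung markers as a covariate, 3060 genes were called over all and 152 among the bright ones.

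Most of the called genes of the actin cytoskeleton and of smooth muscle contraction were higher with the Tet1 siRNAs. Actin filaments carry tension in a cell through myosin motors, tropomyosins that coat the filament, and adaptors that tie it to adhesion sites. Of 52 measured members of the contractile list 20 were called higher and 6 lower, so 26 were called, where 24.2% of all genes were, and 14 higher and 2 lower were kept. The median difference of the list was 0.08, with 26 members that did not pass. No array decided this count by more than 1.5 times when left out.

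Tagln, the actin-binding protein transgelin, had 9.77 and 9.72 with siRNA 1 and 9.34 and 9.15 with siRNA 2, against 7.92 and 7.86 in the control arrays. It rose by 1.61 ± 0.078 (3.05-fold, adjusted p = 1.8e-05), and every siRNA array lay more than 1 log2 unit above both controls. Myl9, the regulatory light chain of smooth muscle and nonmuscle myosin, had 8.08 and 8.18 with siRNA 1 and 7.59 and 7.55 with siRNA 2, against 6.67 and 6.47 in the control arrays. Caldesmon, Cald1, which regulates myosin on the filament, rose by 1.05 ± 0.091 and the LIM domain gene Pdlim2 by 0.62 ± 0.064. Outside the naming rule, and chosen after their values were seen, the tropomyosin genes Tpm1 and Tpm4 rose by 0.97 ± 0.11 and 0.70 ± 0.084. Likewise, Zyx and Vcl, which code for zyxin and vinculin of focal adhesions, rose by 0.83 ± 0.095 and 0.59 ± 0.068, and Myh10, a nonmuscle myosin heavy chain, by 0.50 ± 0.061.

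Not all of the list followed. The fast muscle actinin gene Actn3 had 7.12 and 7.30 with siRNA 1 and 7.24 and 7.52 with siRNA 2, against 8.56 and 8.62 in the control arrays, a difference of -1.29 ± 0.093. The nonmuscle myosin gene Myh14 fell by 0.60 ± 0.078, in contrast to Myh10. Beta-actin, Actb, a bright gene, differed by 0.06 ± 0.062 (adjusted p = 0.546), and its siRNA arrays, at 14.21 to 14.41, overlapped the controls at 14.26 and 14.24.

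Fibroblasts and smooth muscle cells share several contractile genes, so their markers are given beside this result. Of 18 measured, 5 were called higher and 1 lower (33.3%, where 24.2% of all genes were called), which became 3 calls without control replicate 1, and the 3 kept ones, Tagln, Cnn1 and Col5a1, include 2 that the contractile list also holds. Their summed signal ran from 10.60 to 10.95 on the siRNA arrays and was 10.19 and 10.35 on the control arrays. The part of these markers in the contractile result was not tested.

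Serum response factor binds the CArG box, an A and T rich motif flanked by CC and GG, in front of many contractile genes, and the promoters of the 14 kept genes that rose were searched for it after their values were seen. Of these, 12 had a RefSeq promoter available, and 3 of the 12 genes held a CArG box in the window of 300 bases. Of all promoters 1.63% hold it, a share counted by promoter and not by gene. Members of the list that fell or did not pass were not searched, so the number cannot be tied to the rise. Binding of serum response factor was not tested. The 250 bases upstream of Acta1 (chr8:123894776-123895025, minus strand), Myl9 (chr2:156775214-156775463, plus strand) and Vcl (chr14:20929148-20929397, plus strand; all GRCm38.p6) are shown with the box in capitals:
Acta1: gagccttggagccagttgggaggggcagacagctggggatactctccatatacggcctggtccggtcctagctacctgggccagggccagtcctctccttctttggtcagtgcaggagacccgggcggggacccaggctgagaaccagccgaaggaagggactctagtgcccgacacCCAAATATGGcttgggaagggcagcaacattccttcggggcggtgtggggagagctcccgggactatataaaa
Myl9: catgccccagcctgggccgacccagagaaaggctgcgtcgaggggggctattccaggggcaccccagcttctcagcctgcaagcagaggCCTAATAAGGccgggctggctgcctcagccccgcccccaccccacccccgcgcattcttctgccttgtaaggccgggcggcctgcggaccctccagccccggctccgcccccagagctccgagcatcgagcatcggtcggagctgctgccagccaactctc
Vcl: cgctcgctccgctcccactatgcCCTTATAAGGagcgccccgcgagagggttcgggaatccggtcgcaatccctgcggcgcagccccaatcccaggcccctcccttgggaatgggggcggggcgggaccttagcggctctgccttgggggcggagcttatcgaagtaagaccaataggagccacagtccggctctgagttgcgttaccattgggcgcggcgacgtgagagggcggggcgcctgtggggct
The first base of the box lay at position -73 in Acta1, -161 in Myl9 and -227 in Vcl. Acta1, skeletal muscle actin, had 6.96 and 6.97 with siRNA 1 and 6.66 and 6.69 with siRNA 2, against 6.21 and 6.35 in the control arrays, a rise of 0.54 ± 0.067.

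Tight junctions seal epithelial cells to each other, and most called members of their list were higher. Of 30 measured claudins and junction proteins 9 were called higher and 2 lower (36.7%, where 24.2% of all genes were called). Kept were 6 higher and 2 lower. Cldn7, a claudin, had 10.12 and 10.14 with siRNA 1 and 9.72 and 9.85 with siRNA 2, against 8.49 and 8.58 in the control arrays, which is 2.68-fold higher (1.42 ± 0.082). Marveld2, which codes for tricellulin, the protein of junctions where 3 cells meet, rose by 1.55 ± 0.092 and Ocln, occludin, by 1.12 ± 0.10. On the other side, the adhesion molecule gene Jam2 had 7.74 and 7.90 with siRNA 1 and 8.25 and 8.32 with siRNA 2, against 9.34 and 9.45 in the control arrays, and the scaffold gene Tjp3 fell by 0.83 ± 0.082. The claudin genes Cldn3 and Cldn4 differed by 0.05 ± 0.077 and 0.04 ± 0.092 and did not pass (adjusted p = 0.714 and 0.792).

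**Figure D3:**
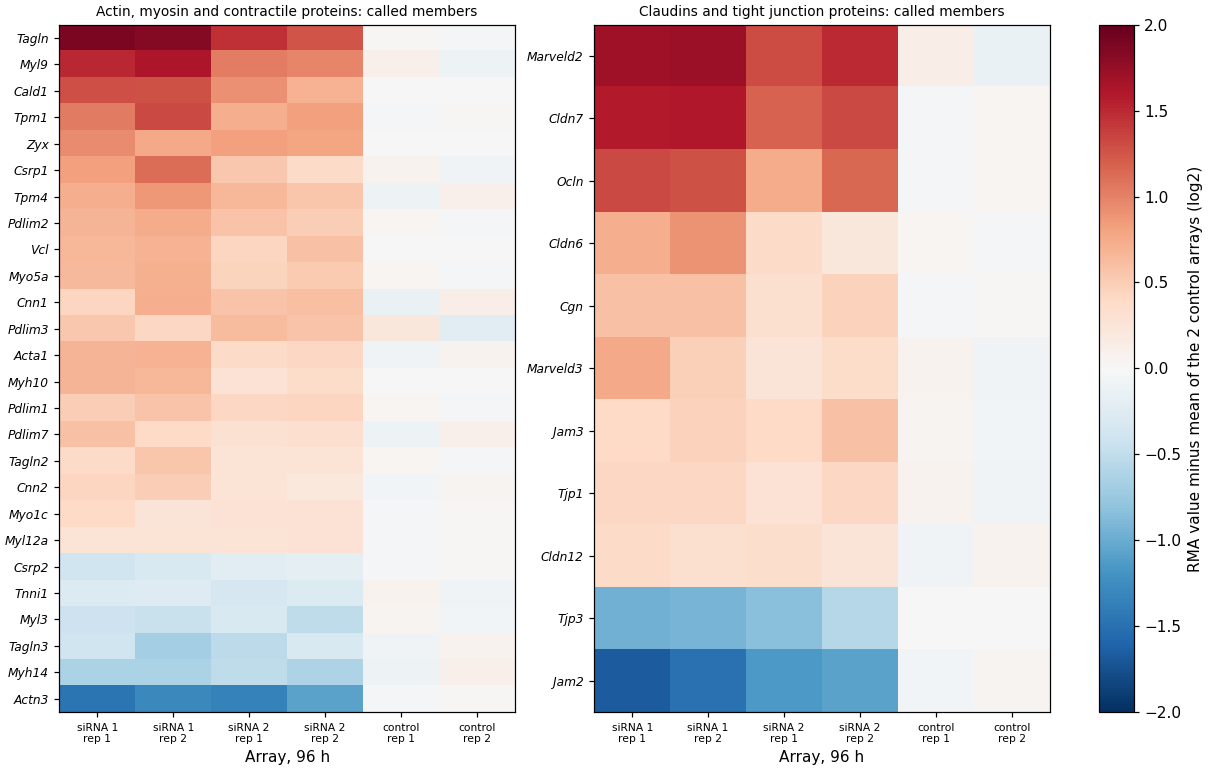
RMA value minus the mean of the 2 control arrays (log2, colour) on each array of 96 h for the called members of the contractile list (left, 26 genes) and of the tight junction list (right, 11 genes), ordered by their difference. Red is above and blue below the control mean, and in Tagln, Myl9, Marveld2 and Cldn7 the siRNA 1 columns are the darkest.

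Intermediate filaments are the third cytoskeletal system. Of 49 measured members 6 were called higher and 5 lower (22.4%, near the 24.2% of all genes), with 6 and 3 kept. Keratins 8 and 18, which pair in simple epithelia, rose together: Krt18 had 9.56 and 9.59 with siRNA 1 and 8.80 and 8.94 with siRNA 2, against 7.85 and 7.98 in the control arrays (1.31 ± 0.080), and Krt8 rose by 0.91 ± 0.11. Krt17 and Krt42, keratins of stratified epithelia and skin appendages, fell by 1.61 ± 0.14 and 0.88 ± 0.068. Krt8 was chosen after its value was seen.

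Neurofilament medium chain, Nefm, had 7.15 and 7.04 with siRNA 1 and 6.93 and 6.94 with siRNA 2, against 4.87 and 4.53 in the control arrays, a rise of 2.32 ± 0.097. It moved in the same direction as Nefl and did not overlap the controls either, which was a condition for naming both. Vimentin, Vim, the filament of mesenchymal cells, did not pass at -0.08 ± 0.064 (adjusted p = 0.378). Among microtubule genes, the neuronal tubulin Tubb3 fell by 1.53 ± 0.11 and Stmn3, a neuronal stathmin, by 1.79 ± 0.083, while Tubb6 rose by 1.17 ± 0.064. Tubb5, a tubulin gene among the 1000 brightest genes, differed by 0.01 ± 0.062 (adjusted p = 0.893).

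Matrix and adhesion genes changed in both directions. In the laminin list 35.3% of 17 members were called, where 24.2% of all genes were, with 3 kept higher and 2 lower. Nidogen 1, Nid1, which links laminin to collagen IV, averaged 6.70 with siRNA 1 and 7.12 with siRNA 2, against 8.06 in the control arrays (-1.15 ± 0.079), and Lamc1 fell by 0.49 ± 0.089. By contrast Lamb1 rose by 0.77 ± 0.081 and the matricellular gene Sparc by 0.62 ± 0.078, as did the collagen IV genes Col4a1 (0.83 ± 0.11) and Col4a2 (0.81 ± 0.075). Thbs1, thrombospondin 1, a further matricellular protein, rose by 1.70 ± 0.12 from a low level, with 7.18 and 7.29 with siRNA 1 and 6.62 and 6.68 with siRNA 2, against 5.40 and 5.08 in the control arrays.

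The integrin subunit gene Itgb1 rose by 0.73 ± 0.077 and Itga8 by 1.04 ± 0.10, whereas Itga9 fell by 0.84 ± 0.087. Of 49 cadherins and protocadherins 6 were called higher and 1 lower (14.3%, below the 24.2% of all genes). The 3 kept ones were all higher: Pcdh8 (1.38 ± 0.086), Cdh10 (1.41 ± 0.13) and Pcdh17 (1.16 ± 0.094), all dim in the controls at 5.06 or less. Cdh1, the E-cadherin gene of ES cell colonies, was called higher by 0.26 ± 0.071 but was not kept. Gja1, connexin 43 of gap junctions, rose by 0.52 ± 0.065, and Gjc1 fell by 0.50 ± 0.079. The metalloprotease genes Adamts1 and Mmp2 rose by 1.27 ± 0.071 and 0.84 ± 0.089, and Timp1, an inhibitor of such enzymes, fell by 0.57 ± 0.059.

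Dual specificity phosphatases, which remove phosphate from MAP kinases, had the largest share of calls among the signalling lists. Of 23 measured, 9 were called higher and 1 lower (43.5%, where 24.2% of all genes were called). Kept were 5 higher and 1 lower, and the median difference was 0.17, against -0.02 over all genes. Dusp6 rose by 1.03 ± 0.064 and Dusp9 by 0.91 ± 0.065. For Dusp9 the level was 9.24 and 9.15 with siRNA 1 and 9.21 and 9.24 with siRNA 2, against 8.34 and 8.26 in the control arrays, so the duplexes gave nearly the same level. Dusp14 and Dusp16 rose by 0.62 ± 0.10 and 0.46 ± 0.068, and Dusp27 fell by 0.74 ± 0.081.

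In the Ras family and its regulators 8 of 52 members were kept higher and 2 lower, and 19 were called, or 11 without control replicate 2. Rasef, a Rab-type GTPase with calcium-binding EF hands, averaged 7.53 with siRNA 1 and 7.39 with siRNA 2, the lowest siRNA array being at 7.24, against 4.43 and 4.98 in the control arrays, the largest rise of the genes the naming rule allows (2.75 ± 0.16). Mras, a Ras relative, had 7.46 and 7.60 with siRNA 1 and 8.23 and 8.31 with siRNA 2, against 9.29 and 9.42 in the control arrays, a difference of -1.46 ± 0.097. Rras2 rose by 0.68 ± 0.060, Rap2b by 0.60 ± 0.065 and Rap1gds1, an exchange factor for small GTPases, by 0.73 ± 0.059. With all arrays 36.5% of the Ras list was called, where 24.2% of all genes were. Of 29 growth factors of the FGF family and their partners 27.6% were called, near the share of all genes. Kept were 4 higher and 3 lower, with rises of Fgf5, a ligand of the epiblast (2.04 ± 0.13), of the carrier gene Fgfbp1 (1.18 ± 0.074) and of Fgf13 (1.02 ± 0.070), and falls of Fgf17 (-1.04 ± 0.083) and Fgf1 (-0.70 ± 0.070).

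Receptors and guidance cues followed no single direction. Adgrl2, an adhesion G protein coupled receptor of the latrophilin type, had 10.17 and 10.15 with siRNA 1 and 9.97 and 9.94 with siRNA 2, against 8.45 and 8.37 in the control arrays (1.65 ± 0.061). Lpar6 and Lpar4, receptors for lysophosphatidic acid, rose by 1.57 ± 0.082 and 0.92 ± 0.093. The guidance gene Sema3e rose by 1.29 ± 0.083 and Efnb2, an ephrin, by 0.63 ± 0.064, while the Eph receptor gene Epha4 fell by 0.91 ± 0.083 and netrin 1, Ntn1, by 0.68 ± 0.071. Anxa1 and Anxa3, annexins that bind membranes through calcium, rose by 1.21 ± 0.073 and 1.73 ± 0.074.

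Transporters were the largest family, with 322 measured solute carriers, of which 22 were kept higher and 15 lower. Calls numbered 83 (25.8%, near the 24.2% of all genes), and 49 without control replicate 2. Within it the genes of iron transport moved apart. Slc40a1, ferroportin, the only known exporter of iron from mammalian cells, had 8.17 and 8.04 with siRNA 1 and 7.86 and 8.03 with siRNA 2, against 6.32 and 6.46 in the control arrays, a rise of 1.64 ± 0.086. Slc11a1, a metal transporter of phagosomes, had 6.07 and 6.09 with siRNA 1 and 6.27 and 5.95 with siRNA 2, against 7.85 and 8.03 in the control arrays, a difference of -1.84 ± 0.11.

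Steap2 and Steap1, metalloreductases and their relative, rose by 1.06 ± 0.067 and 0.71 ± 0.072. The transferrin receptor gene Tfrc, chosen after its value was seen, fell by 0.37 ± 0.070. In the whole list of metallothioneins, zinc and iron handling 31.4% of 35 members were called, with 4 kept higher and 2 lower. Of 75 potassium channel genes 12% were called, below the 24.2% of all genes. Kept were 2 higher and 3 lower, and the 2 kept rises were large. Kcnk1, a 2-pore channel, had 10.56 and 10.60 with siRNA 1 and 10.28 and 10.46 with siRNA 2, against 8.93 and 8.98 in the control arrays (1.53 ± 0.074). Kcnj3 rose by 1.32 ± 0.079. The monocarboxylate transporter gene Slc16a6 rose by 1.19 ± 0.095.

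The called aldehyde dehydrogenases, enzymes that oxidise reactive aldehydes to acids, were all lower. Of 19 measured, 7 were called lower and 0 higher (36.8%, where 24.2% of all genes were called), 5 were kept, 12 did not pass, and the median difference was -0.24. Aldh2, the mitochondrial enzyme of ethanol metabolism and the bright member, had 11.04 and 11.15 with siRNA 1 and 11.27 and 11.33 with siRNA 2, against 11.65 and 11.73 in the control arrays, a difference of -0.50 ± 0.066. Aldh6a1, of valine breakdown, fell by 0.79 ± 0.083, and the dim genes Aldh1b1, Aldh3a1 and Aldh1l2 fell by 1.10 ± 0.15, 0.97 ± 0.12 and 0.55 ± 0.090. The glutathione transferase list had 34.3% of 35 members called. Kept were 6 lower and 3 higher, with falls of Gsta3 (-1.13 ± 0.066) and Gstp3 (-0.75 ± 0.088) and a rise of Gpx8 (0.75 ± 0.078). With the lung marker mean as a covariate this list had 11 calls in place of 12, and the aldehyde dehydrogenases 5 in place of 7. The part of lung RNA in these falls was not tested.

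The called genes of nucleotide synthesis and salvage were all higher. Of 33 measured, 9 were called higher and 0 lower (27.3%, near the 24.2% of all genes), 4 were kept, 24 did not pass, and the median difference was 0.19, with 15 of the members among the 1000 brightest genes. Without control replicate 1 or 2 the calls numbered 5 each. Prps1 and Prps2, which make the ribose phosphate donor of all nucleotides, rose by 0.45 ± 0.064 and 0.54 ± 0.077, and Umps and Ctps2, enzymes of uridine and cytidine nucleotides, by 0.59 ± 0.097 and 0.40 ± 0.060. For Prps1 the level was 11.57 and 11.65 with siRNA 1 and 11.45 and 11.47 with siRNA 2, against 11.04 and 11.12 in the control arrays.

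Serine, glycine and one-carbon metabolism had 6 of 20 members called higher and 4 lower, which became 5 calls without control replicate 1 and 6 without control replicate 2. With all arrays 50% of this list was called, where 24.2% of all genes were. The folate receptor gene Folr1 rose by 0.97 ± 0.082, and Gcat and Psph, of glycine and serine metabolism, fell by 0.62 ± 0.062 and 0.43 ± 0.062. In fatty acid metabolism, 31.6% of 38 members were called, with 5 kept higher and 2 lower. The acyl-CoA synthetase genes Acsl4 and Acsl5 rose by 0.78 ± 0.078 and 0.79 ± 0.093 and the dehydrogenase gene Acadl by 0.73 ± 0.071, whereas Cpt1a, which admits fatty acids to mitochondria, fell by 0.82 ± 0.068. Of 41 phospholipase genes 34.1% were called, with 6 kept rises and 5 kept falls. Pla2g4a was up by 1.45 ± 0.15 and Pla1a down (-1.66 ± 0.091).

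Of 110 glycosyltransferases that build glycan chains 20 were called higher and 6 lower (23.6%, near the 24.2% of all genes). Kept were 12 higher and 2 lower, where 5.57% and 4.74% of all genes were, and the median difference was 0.01. Galnt3, which starts mucin-type O-glycans, had 8.56 and 8.69 with siRNA 1 and 8.13 and 8.20 with siRNA 2, against 6.80 and 6.42 in the control arrays (1.78 ± 0.10), and Galnt7 of the same family rose by 0.77 ± 0.094. Hs6st2, a sulphotransferase of heparan sulphate chains, on which FGF receptors rely, had 7.14 and 7.15 with siRNA 1 and 6.77 and 6.75 with siRNA 2, against 4.98 and 5.36 in the control arrays (1.79 ± 0.10). The transferases B3gnt5 and Chst15 rose by 0.62 ± 0.085 and 0.43 ± 0.063. The 2 kept falls, St8sia1 (-0.61 ± 0.094) and Chst8 (-0.47 ± 0.079), were named after their values were seen.

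The called splicing factors were all higher, but their share was below that of all genes. Of 76 measured, 15 were called higher and 0 lower (19.7%, where 24.2% of all genes were called). Of the members 36 were among the 1000 brightest genes, of which 20.8% were called. Kept higher were 9 members, where 5.57% of all genes were. The called number was 9 without control replicate 1, control replicate 2, siRNA 1 replicate 2 or siRNA 2 replicate 2. All 3 muscleblind genes, regulators of tissue-specific splicing, rose: Mbnl3 by 0.96 ± 0.065, Mbnl1 by 0.85 ± 0.063 and Mbnl2, named after its value was seen, by 0.55 ± 0.086. Mbnl1 had 8.91 on both siRNA 1 arrays and 8.75 on both siRNA 2 arrays, against 8.01 and 7.95 in the control arrays. Celf2, which opposes muscleblind proteins at many exons, rose by 0.80 ± 0.061, Esrp1, a factor of epithelial splicing, by 0.73 ± 0.077, and Ptbp2 by 0.54 ± 0.067.

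The called genes of the clustered histones were all lower. Of 12 measured, 6 were called lower, where 12.2% of all genes were, 0 were called higher, and 6 did not reach the threshold. Kept were 4, and the list's median difference was -0.32. The kept members were H3c15 (-1.79 ± 0.072), H3c14 (-1.25 ± 0.16), H2bc4 (-0.74 ± 0.092) and H2bc21 (-0.51 ± 0.091). H3c15 had 4.88 and 5.01 with siRNA 1 and 5.32 and 5.22 with siRNA 2, against 6.87 and 6.94 in the control arrays. These genes have nearly identical copies, which the probes may not tell apart, and how transcripts without poly(A) tails were labelled is not given in the sources used here.

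Lists of protein synthesis and turnover had called shares below the 24.2% of all genes. Many of their members are bright, and 20.8% of the 1000 brightest genes were called, near the shares of the last 2 lists below. With an intensity trend, cytosolic ribosomal proteins and aminoacyl tRNA synthetases had 10 calls each, where 4254 of all genes were called. Their shares were then not below that of all genes. Mitochondrial ribosomal proteins, proteasome subunits and translation factors had 13, 6 and 14 calls in that fit. Of 71 mitochondrial ribosomal proteins 7 were called (9.86%), or 1 and 0 without control replicate 1 or 2, 3 without siRNA 1 replicate 2 and 4 without siRNA 2 replicate 2, and 0 were kept in either direction. Of 43 proteasome subunits 6 were called (14%), or 2 without either control array, with 1 kept higher and 1 lower. Translation factors had 7 of 56 called higher and 3 lower (17.9%), with 1 kept higher and 0 lower, and 4 and 1 calls without control replicate 1 or 2, 5 without siRNA 1 replicate 2 and 6 without siRNA 2 replicate 2. The list matched by symbols to cytosolic ribosomal proteins, which also takes in the kinase gene Rps6ka6, had 6 calls among 29 members (20.7%), or 3 without control replicate 1, with 2 kept rises and 1 kept fall, Rpl22 rising by 0.40 ± 0.069 and Rpl39l falling. The aminoacyl tRNA synthetases had 7 calls among 34 (20.6%), or 1 without either control array and 3 without siRNA 1 replicate 2, with 0 kept rises and 1 kept fall, that of Sars (-0.41 ± 0.071).

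Lysosomes and autophagy degrade the cell's own components. In this list 3 of 65 members were called higher and 15 lower (27.7%, near the 24.2% of all genes), 0 higher and 8 lower were kept, and the calls numbered 10 and 9 without control replicate 1 or 2. Tfeb, the transcription factor that switches on lysosomal genes, had 7.17 and 7.07 with siRNA 1 and 7.48 and 7.26 with siRNA 2, against 7.84 and 7.95 in the control arrays, a difference of -0.65 ± 0.082. The lysosomal hydrolase gene Hexa fell by 0.73 ± 0.099, the cholesterol-binding gene Npc2 by 0.45 ± 0.060, and Gabarap and Atg2a, of autophagosome formation, by 0.47 ± 0.063 and 0.62 ± 0.097. Of 18 cathepsins 1 was called higher and 2 lower (16.7%, below the 24.2% of all genes), with Ctsc kept higher (1.28 ± 0.076) and 0 kept lower. Macrophage markers, given above, were lower in sum on the siRNA arrays, and their part in these falls was not tested.

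Ubiquitin ligases held some of the largest single rises. Rnf128, a membrane-bound ligase, averaged 9.26 with siRNA 1 and 9.02 with siRNA 2, against 6.66 in the control arrays. Rnf217 rose by 1.83 ± 0.081, Rnf103 by 0.99 ± 0.079 and the adaptor gene Klhl23 by 1.67 ± 0.11, while Rnf125 fell by 0.81 ± 0.081 and Klhl24 by 0.90 ± 0.072. Over the family of 110 ring finger and tripartite motif genes 29.1% were called, where 24.2% of all genes were. Kept were 6 higher and 7 lower, so there was no common direction.

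Outside the lists, or across them, further large rises were those of Fndc3c1 (2.17 ± 0.10), Tmem54 (2.14 ± 0.094), the calcitonin receptor gene Calcr (2.09 ± 0.14) and Pmaip1, which codes for the cell death protein Noxa (2.00 ± 0.066). The membrane-bound carbonic anhydrase gene Car4 (1.94 ± 0.076) and the Wnt pathway factor gene Lef1 (1.93 ± 0.13) were also among them, as were the stem cell surface gene Prom1 (1.83 ± 0.066), Pdzrn3 (1.92 ± 0.089), the apoptosis protease gene Casp8 (1.74 ± 0.069), Ms4a4d (1.71 ± 0.091) and Moxd1 (1.69 ± 0.085). Casp8 had 7.68 on both siRNA 1 arrays and 7.22 and 7.29 with siRNA 2, against 5.67 and 5.79 in the control arrays. Large falls were those of Patl2 (-1.62 ± 0.10), Accsl (-1.61 ± 0.097), Ankrd35 (-1.57 ± 0.13) and the T-box factor gene Tbx3 (-1.36 ± 0.062). Further falls of this size were those of Lrrc34 (-1.54 ± 0.091), the AKT coactivator gene Tcl1 (-1.48 ± 0.11), the myosin gene Myo1f (-1.46 ± 0.12), the melanosome gene Pmel (-1.40 ± 0.11), Pdcl2 (-1.39 ± 0.21) and the trypsin inhibitor gene Spink1 (-1.35 ± 0.10). Tcl1 had 8.50 and 8.85 with siRNA 1 and 9.08 and 9.34 with siRNA 2, against 10.38 and 10.47 in the control arrays.

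Several families had lower shares of called genes. Of 65 cytochromes P450 7.69% were called, of 70 olfactory, vomeronasal and taste receptors 7.14% and of 48 chemokines and their receptors 8.33%, against 24.2% of all genes. Without control replicate 2 the calls numbered 3 of the P450 genes in place of 5, 3 of the receptors of smell and taste in place of 5 and 2 of the chemokine genes in place of 4, and without control replicate 1 the receptors of smell and taste had 8. The kept members numbered 1 in each of these lists: Cyp39a1 (-0.56 ± 0.084), Olfr658 (-0.58 ± 0.080) and Cxcl16 (0.54 ± 0.073). The plot of called shares by gene list sets these beside the contractile, histone and aldehyde dehydrogenase lists. No test was made of any list, and many members of the low lists are dim.

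**Figure D4:**
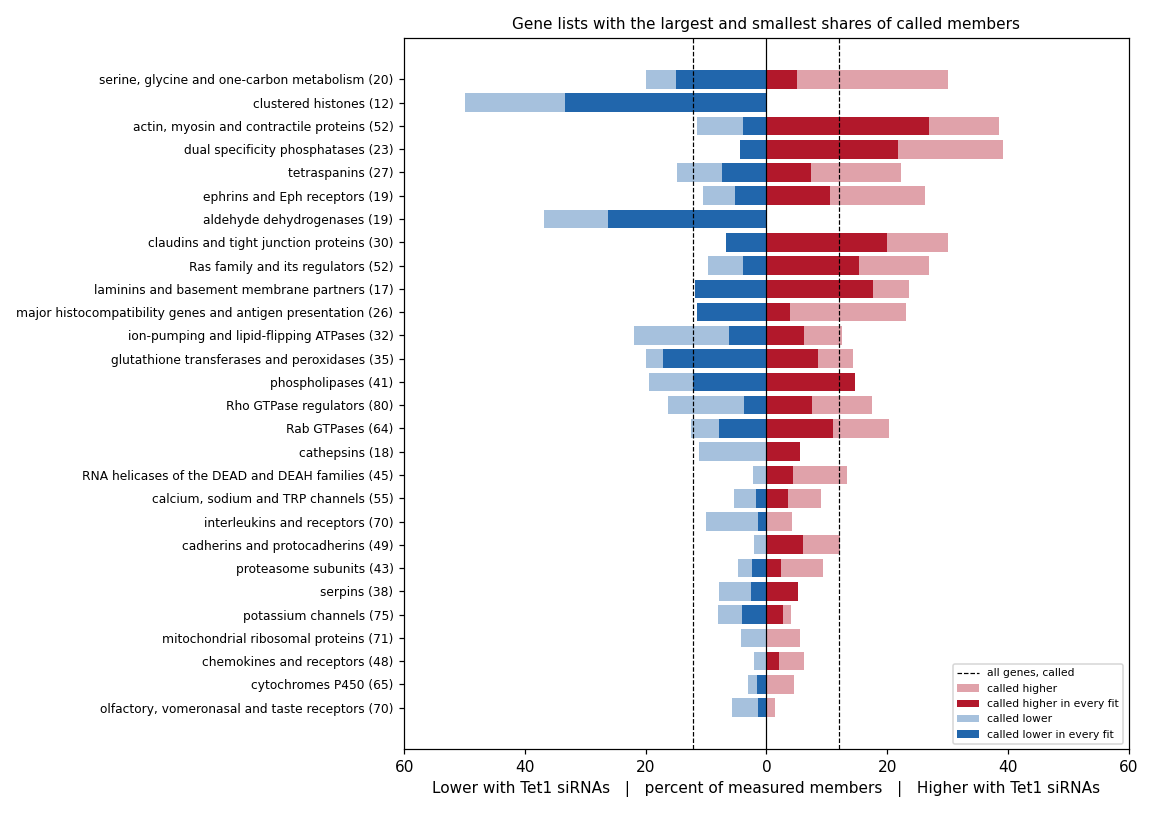
Share of measured members called lower (blue, left) and higher (red, right) with Tet1 siRNAs at 96 h (percent, x axis) for the 16 lists with the largest and the 12 with the smallest called share of 70 lists, with the number measured in brackets. Dark bars are kept members and dashed lines mark the share of all genes called, so that the contractile list reaches past its line on the right and the histone list on the left.

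The arrays of siRNA 1 lay farther from the controls than those of siRNA 2 in most kept genes. Of the 851 kept genes that rose, 710 were higher with siRNA 1 than with siRNA 2, and of the 724 kept genes that fell, 596 were lower with siRNA 1. Each duplex was tested against the same 2 control arrays, with 3487 calls (22.8%) for siRNA 1 and 2392 (15.7%) for siRNA 2. The direct contrast of siRNA 1 with siRNA 2 called 3 genes (0.0197%): Serpinb6c, Sult6b1 and Mymx, which were named because they were the only calls.

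Serpinb6c, an intracellular serine protease inhibitor of the ovalbumin type, had 5.81 and 5.84 with siRNA 1 and 6.72 and 6.69 with siRNA 2, against 8.57 and 8.59 in the control arrays. It fell by 2.31 ± 0.060 over both duplexes, the largest fall of all genes, and was lower with siRNA 1 than with siRNA 2 by 0.88 (adjusted p = 0.0157). Its neighbour in the family, Serpinb6a, rose by 0.53 ± 0.077, with 10.77 and 10.94 with siRNA 1 and 10.59 and 10.72 with siRNA 2, against 10.18 and 10.27 in the control arrays. Serpinb6b differed by 0.21 ± 0.21 and did not pass (adjusted p = 0.512). These genes are related in sequence, and how far their probes cross-react was not looked at here.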

How the data were processed

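Expression was measured on 8 Affymetrix arrays of E14Tg2a total RNA labelled with biotin, 2 per group, and groups were taken from the sample titles. The authors deposited RMA values on the log2 scale, 1 per probe set and array; the submitters' processing notes name RMA with no version, and the scale was read from the values (array medians 6.68 to 6.72). RMA sets arrays to 1 distribution, so changes in total RNA per cell cannot be seen. The number of arrays limits the precision, and scanner backgrounds were not used here.

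Of 16556 probe sets, 64 control and 1222 unlisted ones were left out. The platform annotation paired 15270 with 1 symbol, 0 with several, and 3 genes kept their brightest probe set, which left 15267 genes. A total of 0 columns belonged to other samples. In R 4.3.3, limma 3.58.1 fitted the 4 group means over the 8 arrays (lmFit, eBayes without trend or robust options, 4 residual and 4.13 prior degrees of freedom), with the contrast of both Tet1 siRNAs at equal weight minus control at 96 h, two-sided, and Benjamini-Hochberg adjustment over 15267 genes in each contrast. The script was tested on simulated data. Arrays were not paired by replicate number in the main fit, because the labels state no pairing. The deviations of same-numbered arrays correlated at -0.02 for either siRNA with control and at 0.14 between siRNAs. With 2 arrays per group this cannot settle whether arrays were paired.

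The 70 gene lists (symbol patterns or general knowledge), the 5 marker lists and the naming rule were chosen with earlier results of these data known. Named were kept genes whose siRNA arrays do not overlap the controls: the 15 largest rises and falls among the 1000 brightest genes, the 20 largest rises and falls over all genes, and up to 5 kept members per list by adjusted p, or at most 2 members with the smallest p where none was kept. Predicted genes were not named, and the text leaves out some genes that the rule allows. Members named beyond these, such as Krt8, Ifitm5, Ifitm6, Actb, Vim, Tubb5, Cdh1, Cldn3, Cldn4, Scgb1a1, Serpinb6b, Zyx and Vcl, were chosen after their values were seen. Alternatives were leaving out each array, the 6 arrays of 96 h alone, a replicate block, an intensity trend, robust eBayes, quantile normalization, leaving out dim genes, the mean of 19 lung markers as a covariate and each siRNA alone. Promoter sequences are from RefSeq (GRCm38.p6).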

Additional observations from a re-analysis of the deposited data

Results flagged for a closer look

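The fall of Serpinb6c differed between the duplexes, since its level with siRNA 1 minus its level with siRNA 2 was -0.88 (log2; adjusted p = 0.0157, limma contrast of the siRNAs at 96 h over 15267 genes). Of the probe sets that the annotation does not list, and that entered no gene count, 87 were called higher and 90 lower with the Tet1 siRNAs. No group had 4 or more arrays, so no array was examined as an outlier within its group.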

How the results depend on the processing

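Over all genes the calls ranged from 2218 to 3328 when each array of 96 h was left out in turn (1133 to 1679 higher and 1073 to 1654 lower, with the 48 h arrays counted), and were 3321 without either 48 h array. Among the 1000 brightest genes they ranged from 77 to 186 (43 to 114 higher, 34 to 72 lower). With siRNA 2 alone there were 2392 calls (1223 higher, 1169 lower), 118 of them bright (69 higher, 49 lower). An intensity trend gave 362 bright calls (221 higher, 141 lower) and leaving out dim genes gave 305 (187 higher, 118 lower), which tests fewer genes. The replicate block gave 3403 calls over all genes and 188 among the bright ones; the numbers share no stated culture, and the block moved neither of these counts by over 1.5 times, while it took the calls in the list of Nrf2-type antioxidant genes to 2, against 4 without it, and in regulators of G protein signalling to 3, against 5. With lung markers as a covariate the counts were 3060 and 152. The share of higher calls was 49.6% and stayed between 49.1% and 51.6% under the alternatives tried. No named gene turned its direction, but several settings could not have turned one. The replicate block, the intensity trend, robust eBayes and the 96 h arrays alone gave the same differences as the main fit. Either siRNA alone could not turn genes named for arrays that do not overlap the controls. Of 298 kept genes that the naming rule allows, 5 lost their call with siRNA 2 alone. With siRNA 1 alone, the replicate block, the intensity trend, robust eBayes, quantile normalization or the lung covariate, 0 lost it. With dim genes left out, 221 of them had a value, and 0 of these lost it. All 298 were chosen as kept, so these numbers are no separate support for their calls. Kept genes were by definition called in the same direction in every fit that left out 1 array. Those fits could therefore show neither a lost call nor a turned direction for them. The 96 h arrays alone gave as many calls as the fits without a 48 h array, so that alternative was not independent of the choice. Of 1275 list counts under the alternatives, 192 moved by over 1.5 times. The cause of these moves was not tested. With 2 control arrays, small differences are the ones most easily missed.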
